A study of Mus musculus with 3 samples.

Results

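A set of 42 genes that license, unwind and copy DNA was followed through 21879 cells sorted as early mouse thymocytes. The members are a list by name of origin and fork genes of S phase, drawn up with earlier results of these data known. They were 42 of the 28692 genes listed in the first and second runs and of the 32285 listed in the third. Of these, 41 were found by symbol in the first and second runs, and Pclaf, listed there under an older symbol, was matched by its Ensembl identifier.

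The study sorted T cell precursors from the thymus of C57BL/6 mice, labelled as 6 weeks old, and counted their transcripts cell by cell with 10x Chromium libraries. Double-negative (DN) thymocytes carry neither CD4 nor CD8 and pass through stages DN1 to DN4, while a minority become γδ T cells. The first run held total DN cells with TCRγδ+ cells, the second DN1 and DN2 cells sorted against TCRγδ, and the third a mixture of separately sorted DN1 plus DN2, DN3 and TCRγδ+ cells. Thymi of 4 mice were pooled for each library, no mouse was treated, and each sort was made once, so that run, sort and reagent kit cannot be told apart.

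Each round of DNA synthesis starts from origins that are licensed while the cell is still in G1. ORC and CDC6, with CDT1, load the MCM2-7 helicase ring there, and geminin (Gmnn) blocks reloading once S phase has begun. CDC45, the GINS complex and MCM10 then switch the helicase on, RPA coats the exposed strand, and the polymerases copy it with the sliding clamp PCNA and its loader RFC. Thymocytes divide many times as ETP and DN2 cells, largely stop as they rearrange Tcrb at DN3, and divide again after β-selection.

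The members fell into 8 groups by role. Licensing had 11 genes (Orc1, Orc6, Cdc6, Cdt1, Gmnn and Mcm2 to Mcm7) and helicase activation had 6 (Mcm10, Cdc45 and Gins1 to Gins4). The clamp and its loader had 6 (Pcna and Rfc1 to Rfc5), and single-strand binding had 3 (Rpa1 to Rpa3). The polymerases had 8, namely Pola1, Pola2, Prim1 and Prim2 of the primase complex, Pold1 and Pold2 of polymerase δ, and Pole and Pole2 of polymerase ε. Fen1 and Lig1, which trim and seal Okazaki fragments, and Clspn and Chek1, which signal from stalled forks, made groups of 2. Chaf1a and Chaf1b (subunits of the CAF-1 histone chaperone), Slbp (the histone mRNA binding protein) and Pclaf (a PCNA partner) made the last, of 4.

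Cells were kept if they showed 500 to 5000 genes and if no more than 7% of their UMIs were mitochondrial. This left 5516, 8852 and 7511 cells of the first, second and the third runs out of 23283 deposited. Their median depth was 5989.5, 4844 and 8507 UMIs. Barcodes shared between runs numbered 72 for the first and second, 1 for the first and the third, and 0 for the second and the third. Because of the unequal depth, shares of cells were taken after each cell was thinned to 2000 UMIs at random, which left out 48 shallower cells, all in the third run. Intervals are exact 95% intervals and cover counting error only. Levels are given as CPM, the UMIs of a gene scaled to 1e6 UMIs of the cells in question.

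The first run stood apart before any comparison was made. Members took 6173 CPM there, against 4112 in the second run and 3375 in the third. At 2000 UMIs a cell, the median cell of the first, second and the third run held 10, 4 and 3 member UMIs. Rpa3, the smallest RPA subunit, had the steepest fall from the first to the third run, at 160, 135 and 23.4 CPM. Most of its fall lay between the second and the third runs, so for Rpa3 the third run stood apart. Not every member was highest in the first run. Pola1, the catalytic subunit of DNA polymerase α, was lower in the first run (32.3) than in the third (62.2), and Clspn, Pole and Rfc1 were too. Levels are therefore compared within runs throughout, and results that rest on the first run are given with and without it.

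Pclaf (chr9:65890237-65903266, plus strand, GRCm38) was the highest member in every run, at 925 CPM in the first, 550 in the second and 339 in the third, and took 14.98%, 13.4% and 10.1% of all member UMIs. Among licensing genes Mcm6, a subunit of the helicase ring (chr1:128331590-128359664, minus strand), was highest, at 358, 281 and 208 CPM in the same order. Pcna led the clamp group at 382, 234 and 201 CPM. These UMIs are counted from transcript ends and are not scaled by length, so the order between genes holds for UMIs and not for transcripts per length.

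The highest gene of each other role was Lig1 (222, 141 and 150 CPM), Rpa2 (161, 126 and 83.7), Pold2 (136, 90.8 and 46.8), Gins2 (91.1, 61.2 and 44.1) and Clspn (59.1, 32.1 and 89.1). Orc1, the large ATPase of the origin recognition complex, was the lowest member in all 3 runs, at 12.7, 5.78 and 6.94 CPM. At 2000 UMIs a cell, Pclaf was detected in 51.3% of cells of the first run (49.99 to 52.6), 25.4% of the second (24.5 to 26.4) and 19.4% of the third (18.5 to 20.3). Orc1 was detected in 1.81% (1.48 to 2.20), 0.655% (0.498 to 0.847) and 0.858% (0.661 to 1.09). A single cell therefore says little about a single member, and per-cell statements below use the sum over members.

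Member UMIs were unevenly spread over cells. A cell was called high when it held at least 8 member UMIs among its 2000, a limit set after the distribution had been seen. By this measure 59.0% of cells of the first run (57.6 to 60.3), 30.2% of the second (29.2 to 31.1) and 22.1% of the third (21.2 to 23.1) were high. High cells are a range and not a cell type, and 847, 1131 and 782 cells lay near the limit, at 6 to 9 member UMIs. They were also deeper: the median high cell had 8402.5, 8412 and 17097 UMIs in the 3 runs before thinning, and the rest had 3273, 3749 and 7417.5. Among the shallower cells of each run, split at its median depth, 30.9%, 3.30% and 1.98% were high, and among the deeper ones 87.0%, 57.1% and 42.3%. With the 10% of cells of highest doublet score left out of each run, 57.2%, 28.6% and 20.4% were high. Depth before thinning thus moved with the result, and its part in the result was not tested.

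**Figure D1:**
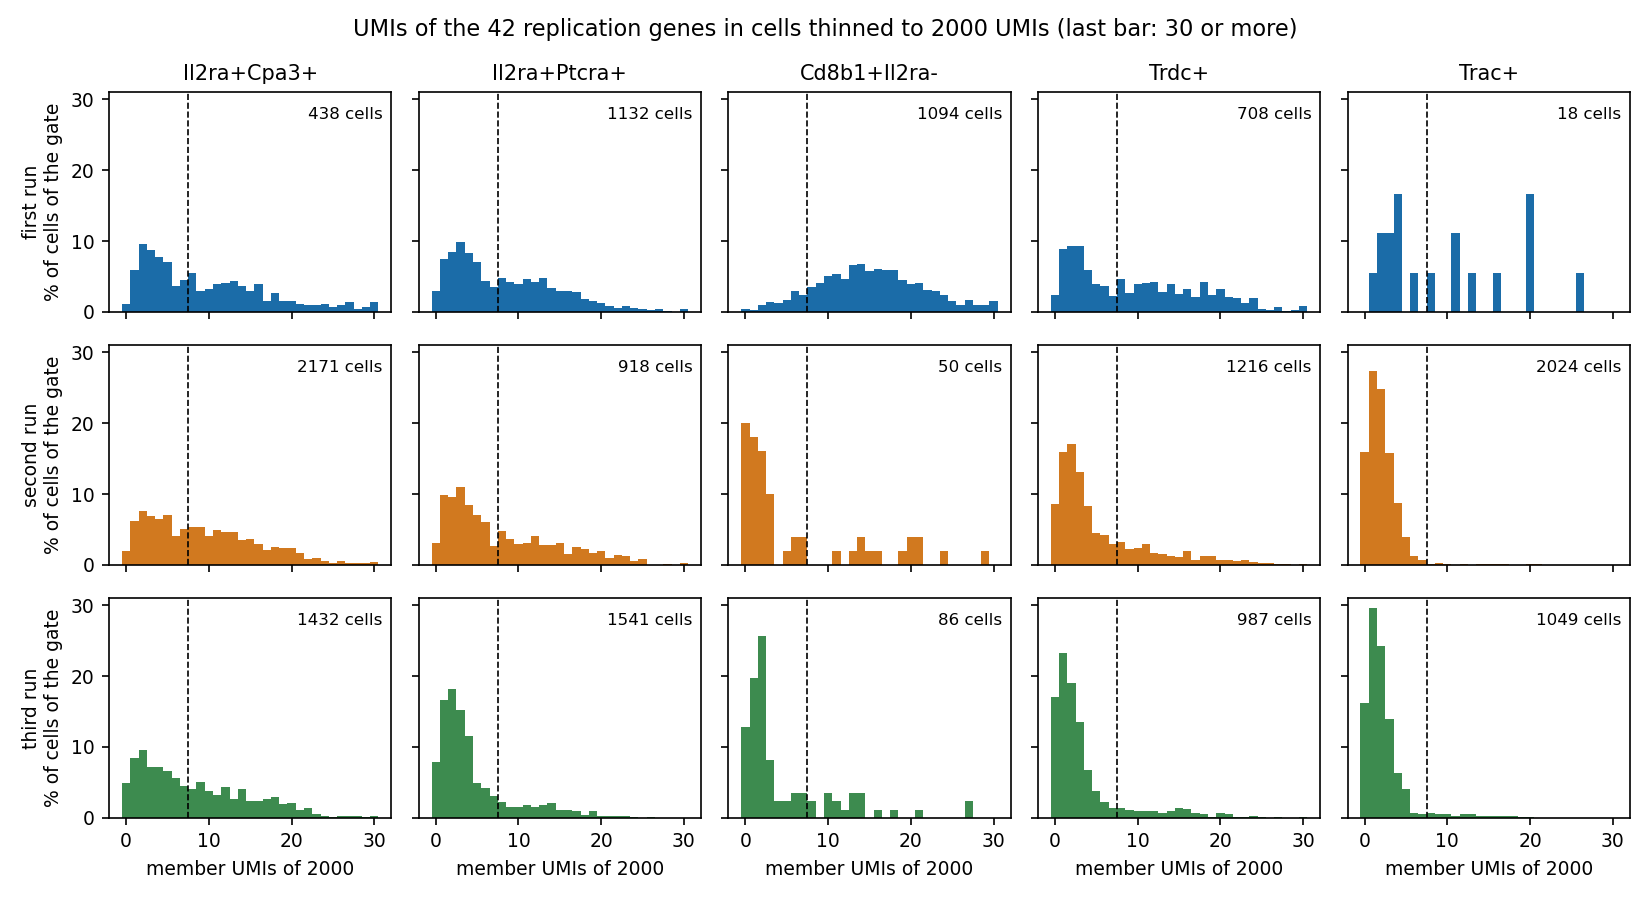
Member UMIs per cell after thinning to 2000 UMIs (x axis) against the percent of cells (y axis), by gate and run. In the first run the Cd8b1+Il2ra- cells sit to the right of the other gates, with 88.5% at 8 or more, and in the second and the third runs the Trac+ cells sit near 0.

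Cells were sorted into stages by the transcripts of 6 genes. Il2ra encodes CD25, present on DN2 and DN3 cells, Cpa3 marks early progenitors, and Ptcra encodes the pre-TCRα chain of DN3 cells. Cd8b1 encodes the CD8β chain, and Trac and Trdc encode the constant regions of TCRα and TCRδ. At least 1 UMI made a cell positive, or 2 for Trac and Trdc, and Trac and Trdc gates held only cells without Il2ra, Ptcra or Cd8b1. Trdc was also read in Il2ra+ cells (536, 586 and 381 CPM in Il2ra+Cpa3+ cells), so the Trdc+ gate is a transcript gate and does not by itself mark γδ T cells. The T lineage genes Cd3e, Cd3g, Bcl11b and Tcf7 were detected in every gate named below.

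Along the Il2ra+ stages, the share of high cells differed least in the first run and most in the third. Among Il2ra+Cpa3+ cells it was 51.6% in the first run (46.8 to 56.4, 438 cells), 54.6% in the second (52.5 to 56.7, 2171 cells) and 45.9% in the third (43.3 to 48.5, 1432 cells). Cells that carried Ptcra as well stood at 46.6%, 55.3% and 41.9%. Il2ra+Ptcra+ cells, in which no Cpa3 UMI was read, stood at 48.1% (45.1 to 51.0), 42.3% (39.1 to 45.5) and 18.5% (16.6 to 20.5). The third run showed the widest gap between Il2ra+Cpa3+ and Il2ra+Ptcra+ cells, and the intervals of these gates overlapped in the first run. Both of these runs held DN3 cells by sort. The second run was sorted as DN1 and DN2 cells, so its Il2ra+Ptcra+ cells are not DN3 cells by sort. The gates differed in depth too, with medians of 4634, 7525 and 13980 UMIs in Il2ra+Cpa3+ cells and 5201.5, 6118 and 8049 in Il2ra+Ptcra+ cells. Split at each gate's median depth, 23.7%, 35.1% and 23.5% of the shallower and 79.5%, 74.3% and 68.3% of the deeper Il2ra+Cpa3+ cells were high. For Il2ra+Ptcra+ cells the shares were 18.7%, 15.5% and 0.908% among the shallower and 77.4%, 69.1% and 36.1% among the deeper. The part of depth in the gap was not tested.

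Outside CD25, Cd8b1+Il2ra- cells of the first run stood highest, at 88.5% high (86.4 to 90.3, 1094 cells). The same gate was small in the other runs, with 50 and 87 cells, and was at 26.0% (14.6 to 40.3) and 22.1% (13.9 to 32.3) there. In the first run 85.7% of its shallower and 91.2% of its deeper cells were high, a narrower split than in the Il2ra+ gates. Its median depth there was 9150 UMIs, against 4596.5 to 5802 in the Il2ra+ gates, so its cells were split at a greater depth. The part of depth in this gate's share was not tested. Ptcra+Il2ra- cells were at 54.8%, 25.2% and 19.4%, and Trdc+ cells at 54.2%, 25.4% and 13.3%. Il2ra+ cells without Cpa3 or Ptcra were at 51.8%, 38.0% and 27.2%, and cells in none of the gates at 53.0%, 14.4% and 9.06%. In this last class B cell markers summed to 1996 CPM in the third run, against 1086 for the T lineage genes. Its erythroid markers summed to 1435 CPM in the second run, against 2195 for the T lineage genes. Its shares are therefore not those of T cell precursors alone. In the third run B cell markers also summed to 308 CPM in Il2ra+ only and 265 in Ptcra+Il2ra- cells. They summed to 62.9 CPM in Il2ra+Cpa3+ and 94.4 in Il2ra+Ptcra+ cells of that run. The part of B cells in the shares of these gates was not tested.

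Trac+ cells were the lowest of all gates in the second run, where 1.38% were high (0.922 to 1.99, 2024 cells), and in the third, where 4.39% were (3.23 to 5.81, 1049 cells). Pclaf was detected in 4.10% and 7.53% of these cells at 2000 UMIs, against 42.4% and 35.4% of Il2ra+Cpa3+ cells of the same runs. Mcm6 was detected in 13.0% and 14.1% of Trac+ cells. The median Trac+ cell had 2860.5 and 6317 UMIs before thinning, and the median Il2ra+Cpa3+ cell 7525 and 13980. The 18 Trac+ cells of the first run were too few to be compared. Cells with both Trac and Trdc were at 8.26% (121 cells) and 11.3% (151 cells) in the second and the third runs.

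Because a deeper cell is more likely to show a UMI of a gate gene, the gates were also set at 200 CPM of a cell's own UMIs, a choice made after seeing the data. A single UMI passes this limit in a shallow cell but not in a deep one, so only deep cells lost a positive gene. Among cells of at least 2000 UMIs, Il2ra+Ptcra+ cells went from 1132, 918 and 1541 to 700, 636 and 954 in the 3 runs. Trdc+ cells went from 708, 1216 and 987 to 1345, 1906 and 1489, so the 2 definitions hold different cells. Trdc+ cells then stood at 67.4%, 38.5% and 22.4% high in the 3 runs, and Trac+ cells at 1.84% and 3.58% in the second and the third. Il2ra+Ptcra+ cells went to 27.1%, 34.1% and 9.75%. Il2ra+Cpa3+ cells stood at 42.1%, 49.5% and 44.2%, and Cd8b1+Il2ra- cells of the first run at 87.2%. Trdc+ cells were below Il2ra+Ptcra+ cells in the second and the third runs at the first definition and above them at 200 CPM, and above them in the first run at both.

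**Figure D2:**
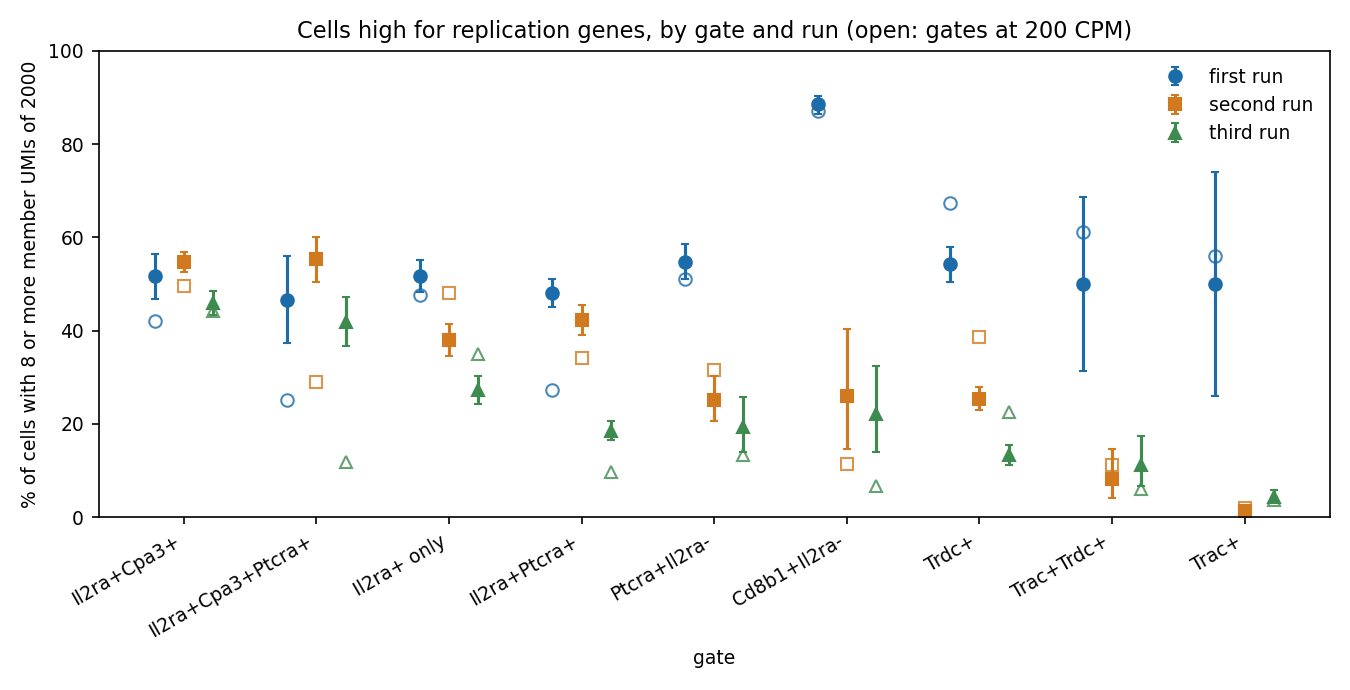
Percent of cells with at least 8 member UMIs of 2000 (y axis) by gate (x axis) and run, with filled points for gates at 1 or 2 UMIs with exact 95% intervals and open points for gates at 200 CPM. Cd8b1+Il2ra- cells of the first run stay at 87.2% or more under both definitions, whereas Il2ra+Ptcra+ cells drop under the second.

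Members varied together across cells, though to different degrees. For each member, its level was taken in cells with at least 8 UMIs of the other 41 members and in cells with at most 2 of them. The ratio of these levels is a description, since it comes from the same cells and shares their depth. Its median over the 3 runs reached from 2.26 for Prim2 to 31.03 for Mcm10, was over 5 for 26 members and was under 2 for 0.

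The steepest members were Mcm10 (12.4 to 57.1 over the runs, with as few as 3 UMIs in the low cells), Clspn (14.9 to 30.3), Pclaf (13.1 to 23.0), Lig1 (18.3 to 21.5) and Cdc45 (11.3 to 22.3). Of these, Mcm10 and Cdc45 belong to helicase activation, whose Gins4 stood near the other end, while Clspn is a fork checkpoint mediator, Pclaf a clamp partner and Lig1 a ligase. Chek1 (17.3), the other checkpoint gene, Cdc6 (16.6), Pole (15.1) and Chaf1a (14.7) came next by the median. At the other end stood Prim2 (1.28 to 3.12), the large primase subunit, Rpa3 (2.27 to 2.98) and Gins4 (2.36 to 2.55), followed by Rfc1 (2.53 to 3.05) and Rpa1 (2.49 to 3.94).

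Partners in a complex did not always go together. In the GINS complex, whose subunits act as 1 body, Gins2 had a median ratio of 7.70 and Gins4 of 2.43. In the primase pair Prim1 was at 9.36 and Prim2 at 2.26. Among clamp loader subunits Rfc4 was at 6.94 and Rfc1 at 2.76, whereas the ring subunits Mcm2, Mcm4, Mcm6 and Mcm7 lay between 4.87 and 5.90, with Mcm3 at 9.26 and Mcm5 from 10.9 to 12.5 over the runs. Pcna, the most widely used proliferation marker of the set, was at 5.61.

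**Figure D3:**
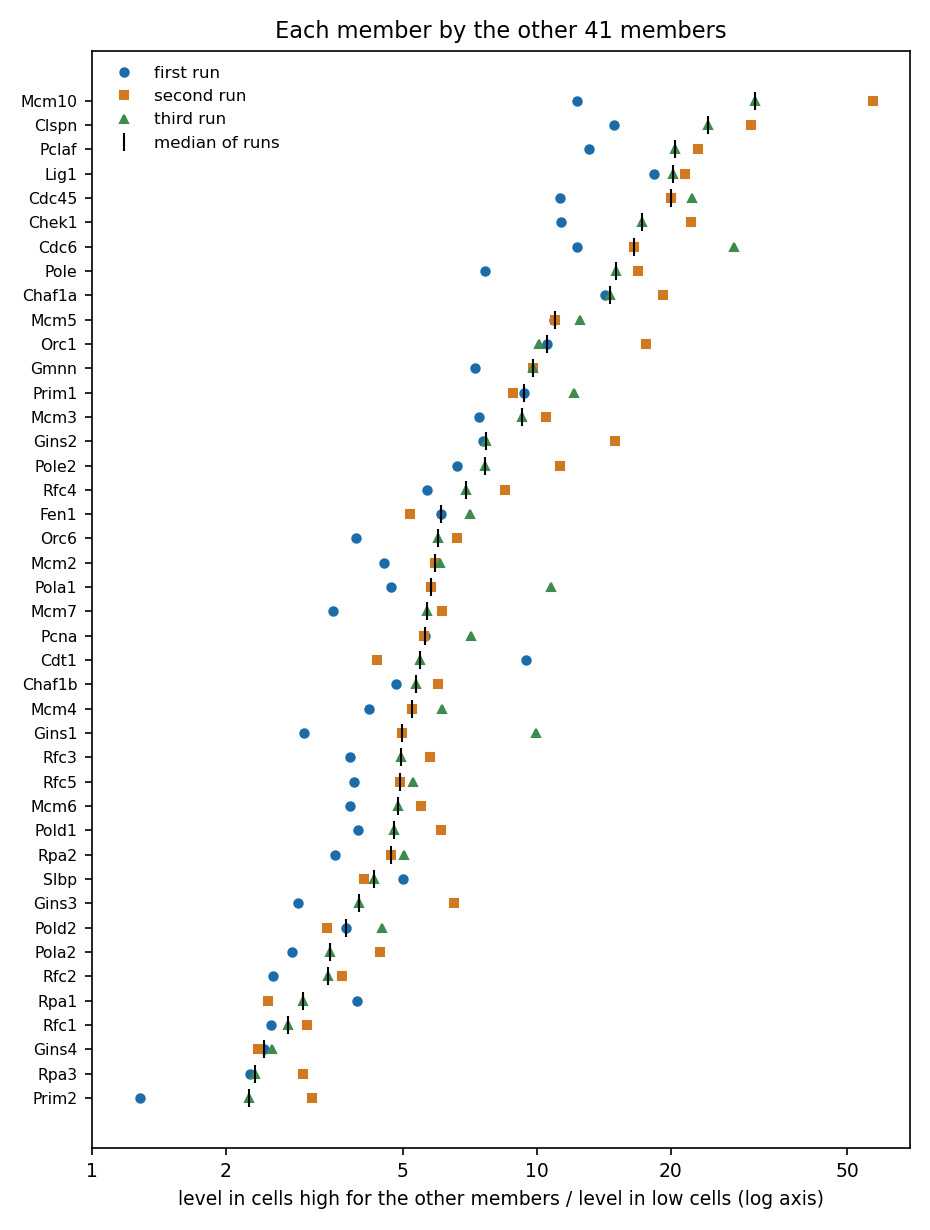
Ratio of each member's level in cells with at least 8 UMIs of the other members to its level in cells with at most 2 (x axis, log scale), with 1 point for each run and members in order of their median. Mcm10, Clspn and Pclaf lie at the top and Prim2, Rpa3 and Gins4 at the bottom, and no median lies under 2.

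Promoter sequence was read for members because they moved together across cells and because many S phase genes are known targets of E2F factors. The RefSeq table of GRCm38.p6 held 39 promoters for 34 members. Gins1, Gins2, Gins4, Gmnn, Mcm4, Pole, Prim2 and Rfc2 had none. The 4 E2F-type words TTTGGCGC, TTTGCCGC, TTTCGCGC and TTTCCCGC were searched on both strands of the 250 bases before each start, and words that overlap share bases. At least 1 word lay before 8 members (Cdc6, Gins3, Mcm5, Mcm6, Mcm7, Orc1, Pola1 and Rfc3), which is 23.5% of the 34, against 2.16% of all 27025 genes in the table.

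Member promoters were rich in CG, with a median of 18 CG pairs against 6 over all promoters, and 4.69% of the 7120 promoters with at least 18 held a word. The CCAAT word lay before 23 members (67.6%) and 37.5% of all genes. The CHR words TTTGAA and TTCGAA lay before 7 members (20.6%) and 19.6% of all genes. A match of letters is not a bound site.

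Stretches of 90 bases are shown for the 3 members whose words lie before both the RefSeq and the GENCODE start, from 5′ to 3′ on the gene's strand, with the E2F-type words in capitals. They come from chr8:75109317-75109406 (plus strand) for Mcm5, chr1:128359745-128359834 (minus strand) for Mcm6 and chrX:93632245-93632334 (minus strand) for Pola1, all upstream of the first exon.
Mcm5: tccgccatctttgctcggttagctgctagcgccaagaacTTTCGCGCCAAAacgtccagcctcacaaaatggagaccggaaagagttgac
Mcm6: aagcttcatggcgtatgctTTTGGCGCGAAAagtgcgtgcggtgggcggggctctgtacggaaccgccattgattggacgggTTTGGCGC
Pola1: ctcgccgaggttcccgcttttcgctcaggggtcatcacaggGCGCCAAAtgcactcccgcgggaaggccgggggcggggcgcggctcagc
In Mcm5 a pair of words on opposite strands overlap in 1 run of capitals, and Mcm6 holds the same arrangement with another word nearer the start. Pola1 holds 1 word. Over the runs the ratio between high and low cells was 10.9 to 12.5 for Mcm5, 3.81 to 5.48 for Mcm6 and 4.705 to 10.8 for Pola1, so the members with these words did not stand together in that order.

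Cells were next divided by genes outside the set. Replication-dependent histone genes are transcribed in S phase and mitosis genes in G2 and M. Cells with at least 5 UMIs of a list of 24 mitosis genes among their 2000 were called mitosis-high (1526, 1268 and 744 cells in the 3 runs). Cells with at least 5 histone UMIs and fewer of the mitosis list were called histone-high (234, 253 and 1211), and the remaining 3756, 7331 and 5508 cells were called neither. No member is on these lists.

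Histone-high cells carried the most member UMIs in the first and second runs, with means of 18.3 and 17.7 per 2000 UMIs, against 13.0 and 10.4 in mitosis-high and 8.89 and 4.996 in the other cells. In the third run the means were 8.40, 10.2 and 3.43. Histone UMIs were more plentiful in that run, at a mean of 13.8 in histone-high cells against 6.14 and 6.90 in the first and second. In mitosis-high cells the mean was 3.34, 4.31 and 32.0 histone UMIs in the 3 runs. Only in the third run was this mean above that of histone-high cells. The 912 histone-high cells of the third run with 5 to 14 histone UMIs held 5.78 member UMIs on average, and its 299 with 15 or more held 16.4. The same limit therefore took in cells with fewer member transcripts in the third run, and a limit of 15 for that run, chosen after seeing the data, was run beside it.

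All 42 members were higher in histone-high cells than in cells that were neither (edgeR quasi-likelihood test on sums per run and bin, with run as a block, Benjamini-Hochberg adjusted p from 0.00377 to 0.0378). Over all 11872 genes tested, 11.7% were called higher and 10.7% lower. The median log2 fold change of the members was 0.997, and that of all genes was -0.03. Within runs the member median was 0.51, 1.19 and 1.20. The bins differed in stage, with Il2ra+ gates at 42.3%, 79.8% and 81.1% of histone-high and 51.0%, 42.6% and 48.5% of neither cells. Histone-high cells were also deeper, with medians of 8714.5, 9397 and 11617 UMIs against 4331.5, 4174 and 7672. The part of depth in the rise was not tested. The 28 other origin and fork genes gave 21 higher and 1 lower. An E2F list of 13 genes gave 8 higher and 1 lower. It holds the factors and Rb family genes themselves (E2f1 to E2f8, Tfdp1, Tfdp2, Rb1, Rbl1 and Rbl2). It was not drawn up by whether a gene is an E2F target, so it does not separate factors from targets.

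Pclaf stood at 612, 248 and 77.7 CPM in cells that were neither and at 1466, 1646 and 607 CPM in histone-high cells of the first, second and the third runs. Every histone-high value lay above its run's partner, and only the third-run value (607) fell just under the first-run level of the other cells. Its log2 fold change was 2.29 ± 0.42 (SE taken from the F statistic of the test, 3 runs, edgeR adjusted p = 0.00886), or 4.88-fold. Clspn followed with 1.83 ± 0.35, Mcm10 with 1.63 ± 0.33, Cdc45 with 1.55 ± 0.30 and Pole, the catalytic subunit of polymerase ε, with 1.41 ± 0.30. Lig1, at 190, 112 and 84.8 CPM in the neither cells and 335, 339 and 266 in the histone-high ones, rose by 1.40.

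The smallest rise was that of Gins4, with 75.5, 53.2 and 40.2 CPM in the neither cells and 74.4, 84.2 and 56.4 in histone-high cells. The first-run values were nearly equal, and the fitted log2 fold change was 0.44 ± 0.13 (adjusted p = 0.0378). Mcm4 (0.62), Mcm2 (0.63), Prim2 (0.71) and Rfc2 (0.74) came next. Gins4, Prim2 and Rfc2 were also among the members with the flattest ratio between high and low cells. The median ratios of Mcm4 (5.24) and Mcm2 (5.90) were higher. Both measures come from the same cells, so neither is support for the other.

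With a run left out, all 42 estimates stayed positive but calls were lost in the smaller fits. Without the second run the member median was 0.89 and 0 members were called, and without the third it was 0.87 and 33 were called. Without the run block the median was 0.94 and 0 members were called.

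Members were then compared between the mitosis-high and the histone-high cells. In the third run the mitosis-high cells held more histone UMIs on average (32.0 against 13.8), and the part of this in the result was not tested. In this comparison 3 members were lower in mitosis-high cells and 0 higher, with 0.329% of all genes called lower and 1.33% called in either direction. Mcm6 went from 508, 534 and 323 CPM in histone-high cells to 328, 255 and 209 in mitosis-high cells of the 3 runs. The mitosis-high value was lower within each run, and the fall was 1.67-fold (log2 fold change -0.74 ± 0.12, edgeR adjusted p = 0.0293). Mcm2 went from 266, 208 and 98.0 to 193, 104 and 55.9 CPM (-0.73 ± 0.13, adjusted p = 0.0428). Chaf1b, the middle subunit of the CAF-1 chaperone, went from 127, 115 and 84.2 to 66.7, 45.1 and 51.1 CPM (-0.96 ± 0.18, adjusted p = 0.0457).

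Cdc6, which loads the helicase in G1, had the most negative estimate but did not pass the test. It stood at 102.5, 76.3 and 67.3 CPM in histone-high and 46.0, 18.7 and 40.4 in mitosis-high cells, with a log2 fold change of -1.22 ± 0.34 (adjusted p = 0.116). In the first and second runs Cdc6 was lower in mitosis-high cells than in the cells that were neither (67.0 and 25.3 CPM), and in the third it was not (17.6). The same order in exactly 2 of 3 runs held for 8 members, namely Cdc6, Chaf1b, Mcm2, Mcm3, Mcm4, Mcm6, Rfc3 and Rpa2, and 0 members showed it in all 3. Cdt1 (-0.75) and Rfc3 (-0.73) were not called.

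Pclaf lay at the other end, with 1268, 1146 and 959 CPM in mitosis-high cells and a log2 fold change of 0.06 ± 0.40. It was lower there than in histone-high cells in the first and second runs and higher in the third. Gins3 (-0.02), Rpa3 (-0.03), Pold1 (-0.07) and Rfc5 (-0.08) also had estimates near 0 and were not called. By role, the licensing genes had a median of -0.66 and the other groups medians from -0.47 to -0.28. The median of all members was -0.39, and within runs it was -0.46, -0.77 and -0.11. The members' highest bin was histone-high for 40, 42 and 31 of 42 members in the 3 runs.

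The call of 3 members was sensitive to where the bins began. With a limit of 10 UMIs 17 members were called, with a limit of 3 there were 0 and the member median became 0.03, and with 15 histone UMIs in the third run there were 10. The share of all genes called at each limit is not given here, so these counts do not speak of the members alone. Without the second run 0 members were called, with a median of -0.19, and without the third 0 were, with a median of -0.60. Among the other origin and fork genes 1 of 28 was higher and 0 lower, and of the E2F list 0 were higher and 1 lower.

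**Figure D4:**
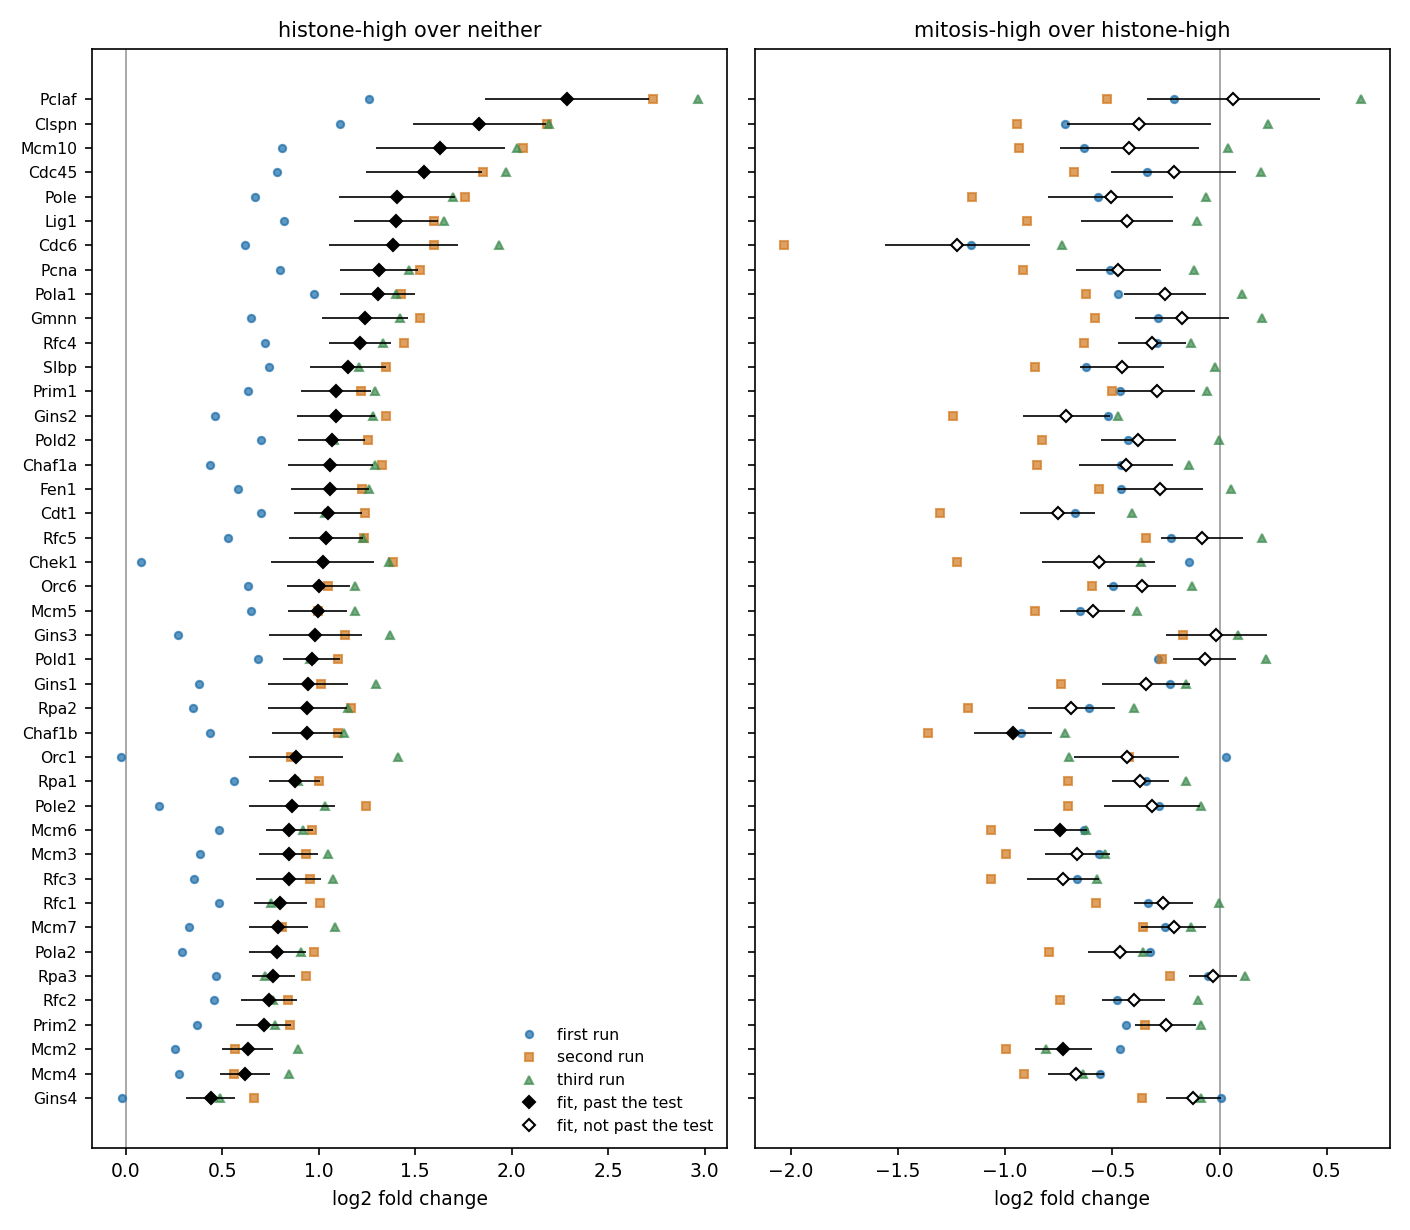
Log2 fold change (x axis) of each member between histone-high and neither cells (left) and between mitosis-high and histone-high cells (right). Diamonds with bars are the edgeR estimate and its SE, filled where past the test, and coloured points are the 3 runs; all 42 diamonds are filled at left and only those of Chaf1b, Mcm6 and Mcm2 at right.

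Between the stages of the Il2ra+ cells, the members did not pass the test. These stages are transcript gates, and the Il2ra+Ptcra+ cells of the second run are not DN3 cells by sort. Between Il2ra+Ptcra+ and Il2ra+Cpa3+ cells 0 of 42 were called by edgeR or by DESeq2 and 2 had an unadjusted p under 0.05, while 7.52% of all 11884 genes were called and 4.48% were called lower. The estimates leaned one way: 41 of 42 were negative, and the median was -0.25 against 0.02 over all genes. Within runs the median was -0.05, -0.12 and -0.49, with 27, 39 and 42 members lower in Il2ra+Ptcra+ cells.

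Pole2 (-0.45), Mcm3 (-0.42), Cdc6 (-0.42), Pole (-0.41) and Prim1 (-0.40) had the most negative estimates. Rfc4 (0.03), Rfc3 (-0.06), Prim2 (-0.06), Rpa3 (-0.07) and Pold2 (-0.08) lay at the other end. Mcm3 was at 207, 195 and 275 CPM in Il2ra+Cpa3+ and at 185, 149 and 171 CPM in Il2ra+Ptcra+ cells, with the widest gap in the third run. Without the first run 3 members were lower, with gates set on thinned cells 5 were, and with gates at 200 CPM 1 was. These counts are given without the share of all genes called in the same setting.

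Cells with Cpa3 and Ptcra together differed little from those with Cpa3 alone. In this comparison 0 members were called, also by DESeq2, 0 had an unadjusted p under 0.05, and 0.219% of all genes were called. The estimates ran from -0.33 (Pole2) to 0.21 (Mcm10), with Mcm4, Rfc2, Mcm3 and Mcm2 next to the lower end and Rfc3, Cdc6, Gins3 and Gmnn next to the upper. Cells with Ptcra but no Il2ra UMI, compared with Il2ra+Ptcra+ cells, gave 0 members called by either tool, 0 with an unadjusted p under 0.05 and 0.0337% of all genes. There Prim2, Pold1, Pola1, Mcm10 and Orc1 had the lowest estimates, down to -0.18, and Pole2, Gins2, Chek1, Rfc4 and Slbp the highest, up to 0.24. These 2 gates differed in B cell markers in the third run (265 against 94.4 CPM), and the part of this was not tested.

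Among histone-high cells alone, 12 members were lower in Il2ra+Ptcra+ than in Il2ra+Cpa3+ cells, and 0 were higher, with 4.28% of all 9622 genes called lower, 2.95% higher and 7.23% in either direction. They were the licensing genes Cdc6, Mcm3, Mcm5 and Mcm6, the activator Mcm10, Rfc2, Rpa2, Prim1, Pole, the checkpoint genes Clspn and Chek1, and Chaf1b. The estimates of Pole (-0.95 ± 0.24, adjusted p = 0.0121), Clspn (-0.80), Cdc6 (-0.80), Chek1 (-0.78) and Pole2 (-0.74, not called) were the most negative. Mcm3 had the smallest adjusted p (0.0023) with -0.65 ± 0.14, and its log2 ratio was -0.59, -0.47 and -0.75 in the first, second and the third runs. Pole was higher in the first run (0.75) and lower in the second (-0.18) and the third (-1.09). Prim2 (-0.06), Rpa1 (-0.18), Rpa3 (-0.20), Pcna (-0.20) and Pold2 (-0.22) lay nearest to 0 and were not called.

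The number called here depended on the third run, where the bin took in cells with few member UMIs. Without that run 0 were called and the member median was -0.16, and without the second 4 were called and it was -0.45. The number was 1 with 15 histone UMIs in the third run and 1 with DESeq2. The first run contributed only 20 Il2ra+Cpa3+ and 48 Il2ra+Ptcra+ histone-high cells. The test of whether the mitosis-high to histone-high difference itself differed between these stages called 0 of 42 members and 0% of 9622 genes, also 0 members by DESeq2, with 13 members and 771 genes at an unadjusted p under 0.05. Chek1 (0.92), Pole (0.89), Mcm10 (0.72), Clspn (0.64) and Orc6 (0.61) had its largest estimates and Prim2 (0.03), Fen1, Slbp, Gins3 and Pola1 the smallest.

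Cd8b1+Il2ra- cells were compared with Il2ra+Ptcra+ cells. Only the first run was a sort of total DN cells, so DN4 cells were not part of the other sorts. For the second and the third runs the gate's Trac level was 298 and 141 CPM, against 32.6 and 12.5 in Il2ra+Ptcra+ cells, while it was 32.9 against 16.9 for the first. Its summed level of 3 NK markers was 1.27, 72.5 and 24.8 CPM in the 3 runs, against 2.66, 12.3 and 5.98. That of 3 plasmacytoid markers (Siglech, Ccr9 and Irf8) was 60.7, 92.0 and 334 CPM, against 74.4, 47.5 and 126. The paper also lists Ccr9 for γδ thymocytes, so this sum does not by itself mark plasmacytoid cells. The part of these differences in the result was not tested. In the first run 41 of 42 members were higher, with a median log2 ratio of 0.43. In the second and the third runs, with 50 and 87 such cells, 17 and 15 members were higher, and the medians were -0.04 and -0.13. The joint test called 0 members by edgeR or DESeq2, 5 had an unadjusted p under 0.05, and 12.1% of all genes were called, 4.75% higher and 7.34% lower.

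Cdc45, the helicase cofactor, had the largest estimate: it was at 36.1, 26.0 and 21.4 CPM in Il2ra+Ptcra+ and at 63.0, 44.6 and 23.8 CPM in Cd8b1+Il2ra- cells. It was higher in every run, by much in the first and by little in the third, and did not pass the test (0.67 ± 0.25, adjusted p = 0.0846). Gins3 (0.60), Chek1 (0.46), Prim1 (0.43) and Pclaf (0.43) followed. Prim2 was lower in each run (52.6, 63.9 and 51.2 CPM against 46.2, 33.4 and 23.8) but was not called (-0.57, adjusted p = 0.121), and Rfc2, Chaf1a, Pola1 and Rpa2 lay between -0.14 and -0.03. When every cell was thinned before summing, or the gates were set on thinned cells, 7 members were higher, and with gates at 200 CPM 4 were. The share of all genes called in these settings is not given here.

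Between Trdc+ and Il2ra+Ptcra+ cells 1 of 42 members was called, a smaller share than the 15.3% of all genes called in either direction. That call was lost with gates at 200 CPM and without the run block. Prim2 was at 45.8, 46.9 and 22.0 CPM in Trdc+ cells and at 52.6, 63.9 and 51.2 in Il2ra+Ptcra+ cells. It was lower in each run, most in the third, with a log2 fold change of -0.68 ± 0.20 (edgeR adjusted p = 0.0225), and 6.45% of all genes were called lower and 8.84% higher. Orc1 (-0.64), Pole (-0.50), Pold1 (-0.44) and Gins1 (-0.42) came next and were not called, and Rpa1, Mcm3, Mcm4, Rfc1 and Gins4 lay nearest to 0.

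In the first run 34 of 42 members were higher in Trdc+ cells (median log2 ratio 0.12), and in the second and the third 42 and 41 were lower (-0.36 and -0.41). Without the first run 13 members were called, a count given without the share of all genes called in that fit. The median of -0.25 became 0.24 with gates on thinned cells and 0.36 with gates at 200 CPM, so its direction depended on how the gate was set.

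Summed over cells, members took more of the UMIs in Trdc+ than in Trac+ cells of the second and the third runs. They stood at 3693 and 2520 CPM against 1209 and 1474. Only these runs had enough Trac+ cells. The median cells differed less: at 2000 UMIs the median Trdc+ cell held 3 and 2 member UMIs, and the median Trac+ cell 2 and 2. In this comparison 36 of 42 members were higher and 0 lower in Trdc+ cells. Of all genes 18.4% were called higher, 22.9% lower and 41.3% in either direction. The member median was 1.07 and that of all genes -0.05, and within the second and the third runs it was 1.73 and 0.76, with all 42 members higher in both. The 28 other origin and fork genes gave 16 higher and 4 lower, and the E2F list 7 higher and 1 lower.

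Mcm10 was at 14.9 and 17.3 CPM in Trdc+ cells of the second and the third runs and at 1.81 and 4.74 in Trac+ cells. Both Trdc+ values lay above both Trac+ values, and the log2 fold change was 2.12 ± 0.37 (edgeR adjusted p = 8.01e-05), or 4.36-fold. Pclaf was at 474 and 274 against 55.8 and 115 CPM (1.78 ± 0.38), and Lig1 at 124 and 105 against 20.4 and 44.7 CPM (1.62 ± 0.32). Orc1 (1.85) and Chek1 (1.54) completed the 5 largest. Mcm6 was at 251 and 148 against 80.5 and 84.5 CPM (1.02), Pcna at 210 and 157 against 84.9 and 97.2 (0.79), Rpa2 at 110 and 57.7 against 49.5 and 38.7 (0.64), and all of these were called. Gins2 (1.36) and Clspn (1.40) were called too.

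The 6 members that were not called were Rpa1 (0.21), Slbp (0.25), Gins4 (0.26), Gins3 (0.30), Pold2 (0.33) and Cdt1 (0.38). Slbp stood at 282 and 133 CPM in Trdc+ and at 153 and 125 in Trac+ cells, a gap that was wide in the second run and small in the third. Gins4 stood at 57.5 and 39.4 against 34.8 and 30.7 CPM. Gins4, Rpa1 and Pold2 also lay low in the order of ratios between high and low cells, and Cdt1 (median ratio 5.48) lay higher.

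The 2 gates differed in other ways. Cpa3, which marks early progenitors, was at 406 and 190 CPM in Trdc+ cells of the second and the third runs. In Trac+ cells it was at 15.1 and 4.49 CPM, and in Il2ra+Cpa3+ cells at 533 and 401. Median depth was 4078.5 and 6942 UMIs in Trdc+ cells of the second and the third runs and 2860.5 and 6317 in Trac+ cells. Split at each gate's median depth, 2.47% and 0.810% of the shallower and 48.4% and 25.8% of the deeper Trdc+ cells were high. For Trac+ cells the shares were 0.0988% and 0.190% among the shallower and 2.67% and 8.59% among the deeper. The summed level of 3 NK cell markers was 474 and 294 CPM in Trac+ cells of the second and the third runs and 14.4 and 14.3 in Trdc+ cells, with 0 of the 3 at zero in any of these sums. The summed level of 3 plasmacytoid dendritic cell markers (Siglech, Ccr9 and Irf8) was 401 and 912 CPM in Trdc+ and 45.2 and 47.0 in Trac+ cells. In the second run 1 of the 3 was at zero in both gates. The paper also lists Ccr9 among genes high in a γδ thymocyte cluster, so this sum does not by itself mark plasmacytoid cells. The second run was sorted against TCRγδ, and its Trdc+ cells carry the transcript only. The part of these differences in the result was not tested. Because only the second and the third runs gave a Trac+ sum, leaving out either leaves 1, whose spread is then taken from the other gates. Without the second run 1 member was called and the median was 0.82, without the third 36 were and it was 1.56, and without the run block 10 were and it was 1.40.

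**Figure D5:**
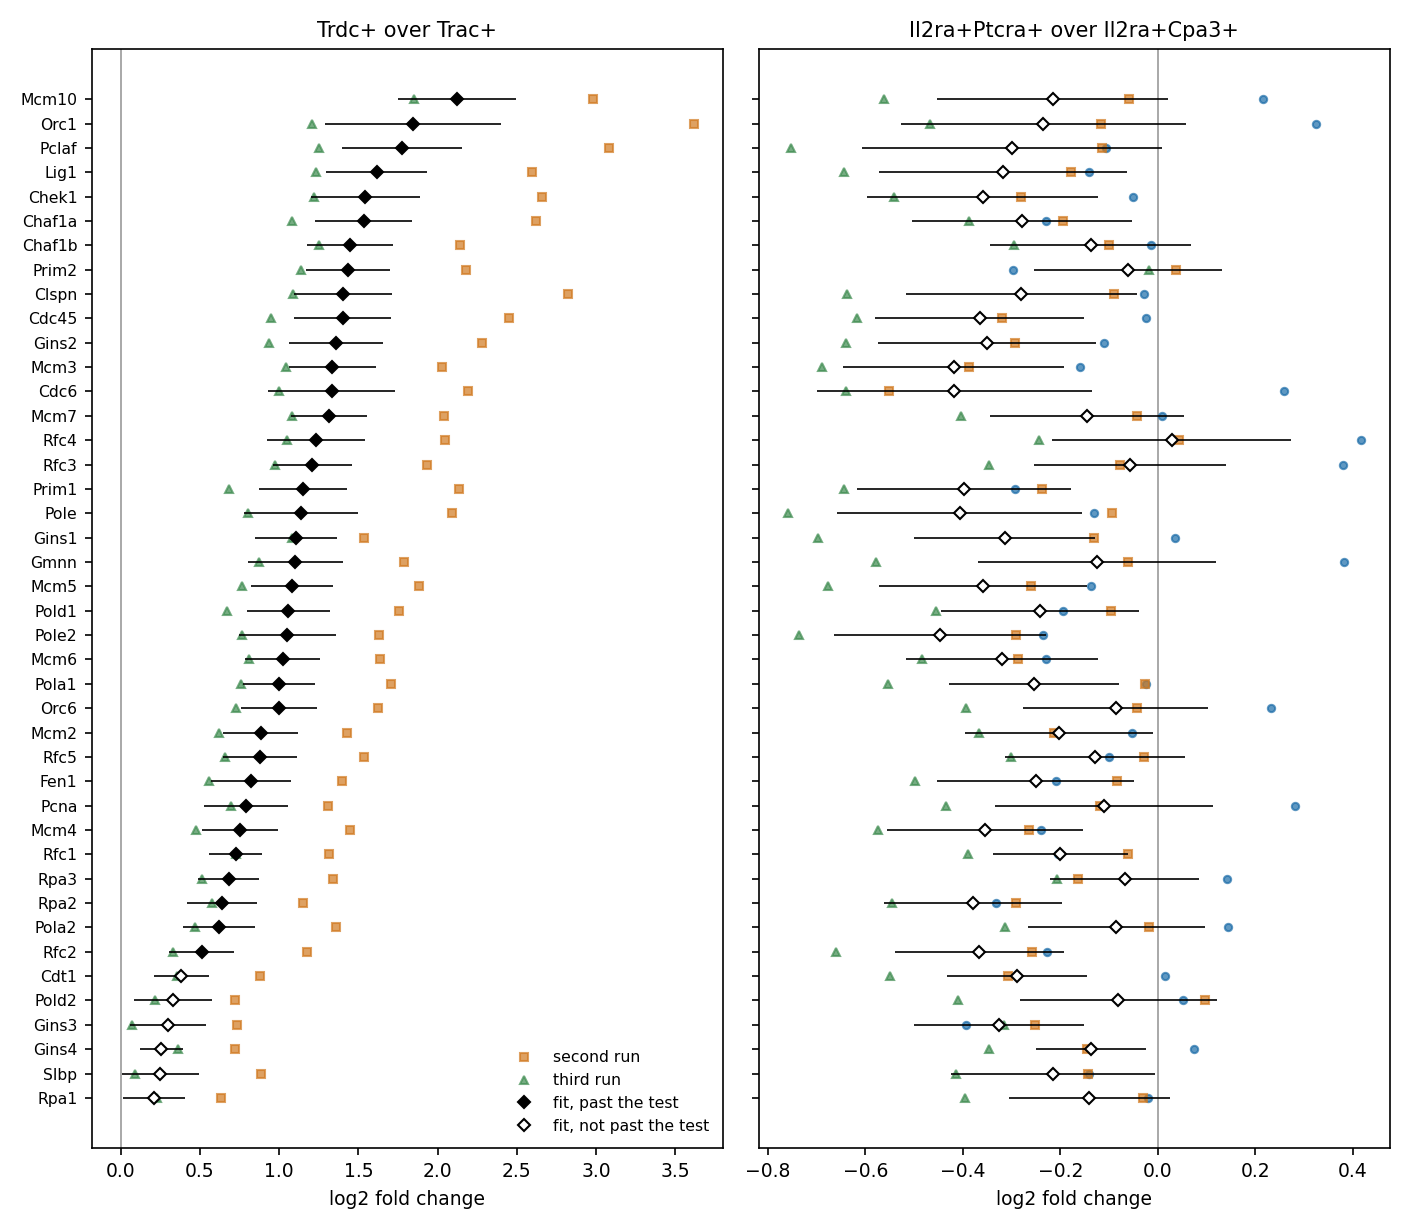
Log2 fold change (x axis) of each member between Trdc+ and Trac+ cells (left) and between Il2ra+Ptcra+ and Il2ra+Cpa3+ cells (right), drawn as for the bins, with the first run in blue at right only. At left 36 diamonds are filled and all lie above 0, and at right none is filled and 41 of 42 lie below 0.

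Member by member, the gate with the highest level followed the run. In the first run it was Cd8b1+Il2ra- for 34 of 42 members. In the second it was Il2ra+Cpa3+Ptcra+ for 23 and Il2ra+Cpa3+ for 12, and in the third these counts were 16 and 23. The lowest gate was Trac+ for 30 members in the second run and 26 in the third.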

How the data were processed

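The authors aligned reads of 3 10x Chromium libraries (V2 or V3.1 kits) to mm10 with Cell Ranger, 4.0.0 per the header of the third run and not given for each of the others in the sources used here, and deposited raw UMI counts per gene and called cell. The deposited counts were used unchanged, with no correction for free RNA and with doublets kept. The study tested single cells, whereas here counts were summed per run and class of at least 20 cells and tested with edgeR 4.0.16 in R 4.3.3 (TMM, filterByExpr, quasi-likelihood, run as a block, all genes adjusted together by Benjamini-Hochberg, threshold 0.05). The 29 gate sums left 17 residual degrees of freedom, the 9 bin sums 4 and the 12 sums of both 6. Gate genes and the histone and mitosis lists were left out of the tests they define.

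Run numbers pair the sums because 1 run is 1 pool of mice: deviations of same-run sums correlated at 0.215 or more over 126 pairs of gate sums and at 0.668 or more over 9 pairs of bin sums. Each sort was made once, and the runs also differ in sort. With run as a block, p-values measure how far differences between classes vary from run to run. That spread is shared over all classes of a fit. For Trdc+ against Trac+ cells only the second and the third runs gave both sums, so those p-values lean on the other gates. Every SE is the size of the log2 fold change divided by the square root of its F statistic, and is not a spread measured over runs. Per-cell shares used cells thinned to 2000 UMIs with a fixed seed. Alternatives were DESeq2 1.42.0, RLE scaling, no filter, no block, each run left out, thinned sums, other cell, doublet and bin limits, and other gates. On simulated counts the share of false calls was somewhat above the threshold. In each comparison the text names the member with the highest mean CPM of each role, the 5 largest and 5 smallest fold changes and any member called against the rest. Members and lists were chosen with earlier results of these data known.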

Additional observations from a re-analysis of the deposited data

Results flagged for a closer look

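The direction of 4 gate comparisons differed between the runs, a difference that was not tested. The median log2 ratio over the 42 members is given for the first, second and the third run in turn. From Il2ra+Cpa3+ to Il2ra+Cpa3+Ptcra+ cells it was -0.11, 0.023 and -0.0075. From Il2ra+Ptcra+ to Ptcra+Il2ra- cells it was 0.16, -0.31 and 0.13. From Il2ra+Ptcra+ to Trdc+ cells it was 0.12, -0.36 and -0.41, and from Il2ra+Ptcra+ to Cd8b1+Il2ra- cells it was 0.43, -0.042 and -0.13. The first run held total DN cells, and the others DN1 and DN2 cells alone or enriched.

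Members were also read in cells left out of the main comparisons, above the limit that a count of 0 allows. In the third run the 552 cells with over 5000 genes held 4958 CPM of members, and 63.2% of them were high. The 762 cells of that run over 7% mitochondrial UMIs held 3143 CPM and its 199 cells under 500 genes 1759 CPM. The 31 cells over 7% mitochondrial UMIs of the second run held 1528 CPM.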

How the results depend on the processing

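Of 147 repeats of the counts and shares, 105 stayed within 1.5 times the value reported or within the spread, and 42 moved. Of 5792 repeats of single member results, 4890 kept direction and side of the threshold, 286 lost the call and 115 gained it. A further 498 changed direction with no call before or after, and 3 changed direction with a call. The cause was not tested. The numbers that follow are members called. They are given without the share of all genes called in the same setting, so a change in them may be shared by other genes.

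Without the replicate block they were 0 for Trdc+ against Il2ra+Ptcra+ cells, 10 for Trdc+ against Trac+, 0 for mitosis-high against histone-high, 0 for histone-high against neither and 0 for the stages within histone-high cells, and the block changed no other count by over 1.5 times. With 1 run left out, the range was 0 to 3 for Il2ra+Ptcra+ against Il2ra+Cpa3+ cells, 0 to 13 for Trdc+ against Il2ra+Ptcra+, 0 to 1 for Cd8b1+Il2ra- against Il2ra+Ptcra+, 1 to 38 for Trdc+ against Trac+ (the Trac+ arm is 1 sum, assumed to vary like the other gates, without the second or the third run), 0 to 3 for mitosis-high against histone-high, 0 to 42 for histone-high against neither and 0 to 12 within histone-high cells.

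Mitosis-high against histone-high gave 11 with DESeq2, 10 without the filter, 8 with cells over 5000 genes kept, 0 with a bin limit of 3, 17 with a limit of 10, 10 with the third-run histone limit of 15, and 11 among Il2ra+ cells. The stages within histone-high cells gave 1 with DESeq2, 6 on thinned sums, 7 at a mitochondrial limit of 5%, 2 and 1 at bin limits of 3 and 10, and 1 at the histone limit of 15. In them Prim1 turned to 0.016 and Chek1 to 0.22 at a bin limit of 10, and Prim1 to 0.043 at the histone limit of 15. Il2ra+Ptcra+ against Il2ra+Cpa3+ cells gave 1 on thinned sums, 5 with gates on thinned cells and 1 at 200 CPM. Cd8b1+Il2ra- cells gave 7, 7 and 4 in the same order, and Trdc+ against Il2ra+Ptcra+ gave 0 at 200 CPM.

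The median share of cells with a UMI of a member was 16.2%, 9.26% and 7.497% in the 3 runs at 2000 UMIs, 8.70%, 4.94% and 3.91% at 1000 and 34.6%, 23.7% and 13.9% at 4000, so a share is a statement about depth. At 2000 UMIs members such as Orc1 cannot be followed in single cells. The third run counts more histone transcripts than the others, and bins at a common limit do not hold like cells.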
